A study of Mus musculus with 2 samples.

Results

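The 9 genes described here encode costimulatory receptors and tumour necrosis factor (TNF) superfamily members of T cells: Icos, Cd28, Cd27, Tnfrsf4, Tnfrsf9, Tnfrsf18, Tnfsf8, Tnfsf11 and Cd40lg. They were taken by symbol from the 32285 genes of the deposited count matrices, and all 9 were present once in both. The tumour library, labelled TIL, came from a colon tumor of C57BL/6J mice aged 18 to 20 weeks. The library it was set against, labelled IEL, came from normal colon tissue of mice of the same strain and age. Both carry the label γδ T lymphocytes, the labels give no genotype or treatment for either and do not say how the tumour arose, and the number of mice behind each is not stated. RNA of single cells was counted as unique molecular identifiers (UMIs) by droplet sequencing of transcript 3' ends. The design asks how γδ T cells of the tumour and of normal colon differ, and tumour cells were also split by Cd163l1, a scavenger receptor family gene, into cells with 1 or more Cd163l1 UMI and cells with 0.

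A T cell that meets antigen needs further signals to expand and survive, and costimulatory receptors carry them. CD28 and ICOS are immunoglobulin superfamily receptors that act through phosphoinositide 3-kinase, whereas CD27, OX40 (Tnfrsf4), 4-1BB (Tnfrsf9) and GITR (Tnfrsf18) are TNF receptors that signal through TRAF adaptors to NF-κB. CD30 ligand (Tnfsf8), RANK ligand (Tnfsf11) and CD40 ligand (Cd40lg) are TNF family ligands that T cells present to partner cells. In mice, Cd27 is known to separate γδ T cells that make interferon γ, which carry it, from those that make IL-17, which largely lack it.

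After filters on cells and a gate on Cd3 transcripts, 12044 TIL cells with a median of 6450.5 UMIs and 9007 IEL cells with a median of 6849 UMIs were compared. The TIL cells with a Cd163l1 UMI numbered 9243 (median 6730 UMIs), and those with 0 numbered 2801 (median 5597). Of the 7 γδ T markers looked at, 7 reached 20 UMIs per 1000000 (CPM) in both libraries, and 0 of 8 myeloid markers did so in either. Both counts follow in part from the gate, so they do not test what the cells are. It asks for Cd3d, Cd3e or Cd3g, which are among the 7, and leaves out cells with 2 or more myeloid markers. Of 5 αβ T markers, 3 reached 20 CPM in TIL and 4 in IEL cells, and of 6 innate lymphoid markers 6 and 3. Transcripts of the αβ receptor were common under this label, since 38.0% of TIL cells and 77.8% of IEL cells held Trac (15.8% and 43.1% at 2000 UMIs per cell), and no sort or gate is described. Tumour tissue is named in the extraction protocol of either library, and 33 cell barcodes occurred in both. Each group is a single library, so no test was possible, and every difference is between 2 libraries. Intervals in brackets are exact 95% intervals that cover counting error only.

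Levels are UMIs summed over the cells of a group and given as CPM. They rise both with the share of cells that hold a transcript and with the amount in each cell. A gene was counted as apart between 2 groups when it reached 20 CPM in either, differed at least 2-fold and had an interval excluding 1. Of the 9 genes, 6 reached 20 CPM in either library. Among them Icos, Tnfrsf9 and Tnfsf11 were higher in TIL cells and Cd27 was lower, while 10.9% of the 6319 genes at this level were higher and 13.6% lower. The median log2 ratio of all these genes was -0.09.

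Icos (ENSMUSG00000026009, chromosome 1, 60977927 to 61000320, GRCm38, plus strand) encodes the inducible costimulator of activated T cells. It was at 850 CPM (76422 UMIs) in TIL cells and 33.0 CPM (2230 UMIs) in IEL cells, 25.8-fold higher in TIL cells, or 4.69 on the log2 scale (4.63 to 4.75). At 2000 UMIs drawn from each cell, 69.3% of TIL cells (68.4 to 70.1) and 5.85% of IEL cells (5.37 to 6.35) held an Icos UMI. Most TIL cells thus held Icos at this depth and few IEL cells did. Cd28 (ENSMUSG00000026012, chromosome 1, 60716800 to 60773359, plus strand), the founding costimulatory receptor, is a near neighbour of Icos, with Ctla4, its inhibitory relative, between them. It stayed under 20 CPM in both libraries, with 14.8 CPM in TIL against 5.16 CPM in IEL cells, and a UMI in 2.59% of TIL against 0.772% of IEL cells.

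Among the 4 TNF receptors, Tnfrsf9 stood highest in both libraries in UMIs, which in 3' counting do not grow with transcript length. Tnfrsf9 (ENSMUSG00000028965, chromosome 4, 150914562 to 150946102, plus strand) encodes 4-1BB, a receptor induced on activated T cells. It was at 1386 CPM (124533 UMIs) in TIL against 314 CPM (21199 UMIs) in IEL cells, which is a log2 ratio of 2.14 (2.12 to 2.16). A Tnfrsf9 UMI was found in 74.6% of TIL against 34.1% of IEL cells at 2000 UMIs. Of the 9 genes it was found in the largest share of IEL cells, ahead of Tnfrsf18.

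Cd27 ran the other way. Cd27 (ENSMUSG00000030336, chromosome 6, 125232622 to 125237010, minus strand), the receptor of CD70, was at 17.5 CPM (1571 UMIs) in TIL against 84.4 CPM (5708 UMIs) in IEL cells, 4.83-fold lower in TIL cells, or -2.27 on the log2 scale (-2.35 to -2.19). It was found in 3.27% of TIL cells against 14.3% of IEL cells at 2000 UMIs.

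Tnfrsf18 and Tnfrsf4 lie 9551 bases apart on chromosome 4 in the same orientation and encode receptors that are both prominent on regulatory T cells. Tnfrsf18 (ENSMUSG00000041954, 156026164 to 156028895), or GITR, was at 61.1 CPM in TIL against 120 CPM in IEL cells, with a log2 ratio of -0.97 (-1.02 to -0.92) that was just short of 2-fold. It passed 2-fold, at -1.18, when cells had to hold a γδ receptor UMI and none of Trac. Tnfrsf4 (ENSMUSG00000029075, 156013843 to 156016612), or OX40, was under 20 CPM in both libraries, with 951 UMIs (10.6 CPM) in TIL and 77 UMIs (1.14 CPM) in IEL cells. The neighbouring genes thus differed in level, and Tnfrsf18 was found in 10.5% of TIL against 19.5% of IEL cells, Tnfrsf4 in 0.895% and 0.224%.

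Of the ligands, Tnfsf11 had the largest ratio of the 9 genes. Tnfsf11 (ENSMUSG00000022015, chromosome 14, 78277445 to 78308043, minus strand) encodes RANK ligand, known for driving osteoclasts and lymphoid organ development. It was at 129 CPM (11633 UMIs) in TIL against 2.29 CPM (155 UMIs) in IEL cells, 56.5-fold higher in TIL cells, or 5.82 on the log2 scale (5.59 to 6.06). Its UMIs were nevertheless held by a minority of tumour cells, 12.9% at 2000 UMIs, against 0.369% of IEL cells. Tnfsf8 (ENSMUSG00000028362, chromosome 4, 63831308 to 63861347, minus strand), the CD30 ligand, was at 17.8 CPM in TIL against 27.8 CPM in IEL cells, under 2-fold apart. Cd40lg (ENSMUSG00000031132, chromosome X, 57212143 to 57224042, plus strand), the helper ligand typical of CD4+ T cells, had 34 UMIs in all TIL cells and 16 in all IEL cells. At this depth no difference in Cd40lg could be detected, with a log2 ratio of 0.68 (-0.22 to 1.63).

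**Figure D1:**
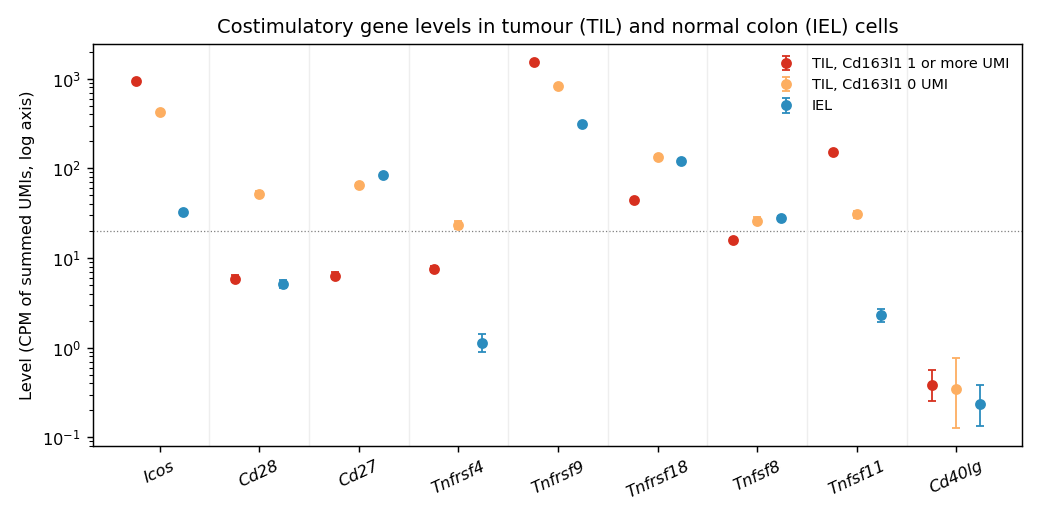
Level of each gene in TIL cells with 1 or more Cd163l1 UMI, TIL cells with 0, and IEL cells, as CPM of summed UMIs on a log axis with exact 95% Poisson intervals; the dotted line marks 20 CPM. Icos and Tnfsf11 stand in the order of the legend from high to low, and Cd27 lies at 6.35, 64.5 and 84.4 CPM in that order.

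**Figure D2:**
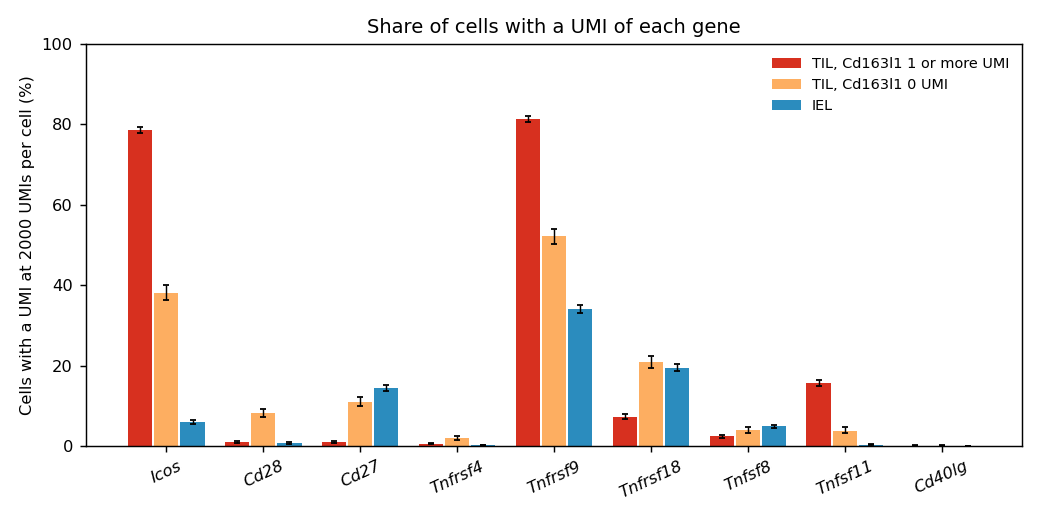
Percent of cells with at least 1 UMI of each gene after 2000 UMIs were drawn from every cell, in the same 3 groups, with exact 95% Clopper-Pearson intervals. Icos and Tnfrsf9 are the tallest bars, at 78.6% and 81.4% of TIL cells with Cd163l1, 38.1% and 52.1% of those without, and 5.85% and 34.1% of IEL cells.

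Free RNA in droplets can give a UMI to a cell that does not make it, so the same counts were taken in 39 myeloid cells of the tumour library, of which 34 had 2000 UMIs (median of all 39: 9212 UMIs). Of these 34 cells, 4 held Tnfrsf9 and 1 held Tnfsf8. None held any of the other 7 genes, which allows a share of up to 10.3% for each. Without drawing to a fixed depth, Icos reached 11.6 CPM and Tnfsf11 8.67 CPM in the myeloid cells, below the 850 and 129 CPM of TIL cells. Tnfrsf9 was higher there, at 63.6 CPM (39.8 to 96.3), with a UMI in 33.3% of the myeloid cells, against 1386 CPM in TIL cells. Shares of a few percent, such as those of Cd28, Tnfrsf4 and Tnfsf8, lie under the limit these few cells can set. The IEL library had 0 such myeloid cells.

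RefSeq promoter windows, 250 bases before to 50 after a start (GRCm38.p6), were at hand for 6 of the 9 genes; Icos, Cd28 and Cd40lg had no entry. Windows of the 3 entries that were apart between the libraries, Tnfrsf9, Tnfsf11 and Cd27, were searched on both strands for motifs of factors that T cell activation engages. These were NF-κB (GGG, any 5 bases, CC), AP-1 (TGANTCA) and NFAT (GGAAA, any 5 bases, TCA), which 50.8%, 7.81% and 1.42% of all 32851 windows hold. Capitals mark matches, and the sequences run 5′ to 3′ on the gene's strand: Tnfrsf9 starting upstream (chr4:150919905-150920204, plus) and downstream (chr4:150927749-150928048, plus), Tnfsf11 (chr14:78307994-78308293, minus) and Cd27 (chr6:125236978-125237277, minus).
Tnfrsf9 upstream: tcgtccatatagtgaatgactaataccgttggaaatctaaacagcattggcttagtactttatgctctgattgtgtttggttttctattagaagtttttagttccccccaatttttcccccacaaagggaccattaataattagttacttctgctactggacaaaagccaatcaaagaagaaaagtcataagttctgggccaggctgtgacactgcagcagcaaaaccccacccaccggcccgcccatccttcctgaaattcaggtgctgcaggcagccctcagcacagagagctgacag
Tnfrsf9 downstream: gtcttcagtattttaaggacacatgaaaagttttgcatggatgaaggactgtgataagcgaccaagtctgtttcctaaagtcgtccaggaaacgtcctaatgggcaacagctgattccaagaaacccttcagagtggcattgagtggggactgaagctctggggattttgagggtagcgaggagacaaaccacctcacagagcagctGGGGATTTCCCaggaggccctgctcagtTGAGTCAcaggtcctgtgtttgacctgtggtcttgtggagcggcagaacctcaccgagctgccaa
Tnfsf11: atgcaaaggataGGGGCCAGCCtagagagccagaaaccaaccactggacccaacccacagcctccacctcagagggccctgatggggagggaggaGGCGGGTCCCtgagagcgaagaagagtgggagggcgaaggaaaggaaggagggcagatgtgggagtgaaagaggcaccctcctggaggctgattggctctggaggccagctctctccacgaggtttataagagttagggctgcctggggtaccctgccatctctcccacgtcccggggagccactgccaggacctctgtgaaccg
Cd27: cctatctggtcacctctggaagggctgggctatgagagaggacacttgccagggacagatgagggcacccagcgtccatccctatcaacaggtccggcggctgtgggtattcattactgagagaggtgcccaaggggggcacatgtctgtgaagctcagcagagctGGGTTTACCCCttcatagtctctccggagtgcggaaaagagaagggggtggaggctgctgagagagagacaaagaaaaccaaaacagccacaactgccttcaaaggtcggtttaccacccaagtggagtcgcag
The downstream Tnfrsf9 window held 2 overlapping NF-κB matches in GGGGATTTCCC and 1 AP-1 match, TGAGTCA, and the upstream one held 0 of any. Tnfsf11 held 2 separate NF-κB matches, and Cd27 2 that overlap. The windows of Tnfrsf4, Tnfrsf18 and Tnfsf8 held 0 matches to any of these motifs. A match is a run of letters and not a measured site, and 3' counts do not show which Tnfrsf9 start was used.

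Inside the tumour library the genes separated by Cd163l1. A single Cd163l1 UMI does not show that a cell makes it. Of the 39 myeloid cells of the tumour, 17.9% held one at full depth, at 20.2 CPM (8.13 to 41.7). The TIL cells with Cd163l1 held more Icos and Tnfsf11 and less Cd27, Cd28, Tnfrsf4 and Tnfrsf18 than those without it, and 8 of the 9 genes reached 20 CPM in either. That is 2 higher and 4 lower, where 2.85% of 5688 genes were higher and 3.18% lower. Icos was at 952 CPM in cells with Cd163l1 and 423 CPM in cells without, a log2 ratio of 1.17 (1.13 to 1.20). Tnfsf11 was at 153 CPM in cells with Cd163l1 and 30.8 CPM in cells without, a log2 ratio of 2.31 (2.19 to 2.44). Tnfrsf9 leaned the same way without reaching 2-fold, at 1518 CPM with Cd163l1 and 829 CPM without it.

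The genes that were lower with Cd163l1 were receptors. Cd27 was at 6.35 CPM in cells with Cd163l1 and 64.5 CPM in cells without, 10.2-fold lower with Cd163l1, and Cd28 was at 5.89 CPM with it and 52.2 CPM without, 8.86-fold lower. On the log2 scale these are -3.34 (-3.50 to -3.19) and -3.15 (-3.32 to -2.98). Tnfrsf18 was at 43.9 CPM with Cd163l1 and 134 CPM without, and Tnfrsf4 at 7.57 and 23.3 CPM, each a log2 ratio between -1.62 and -1.61. The call for Tnfrsf4 was lost without the 79 cells of a cluster led by Foxp3 (-0.96), with the split made at equal depth (-1.33) and in cells with a γδ receptor UMI and no Trac (-1.08), in the last 2 because it stayed under 20 CPM. Tnfsf8, at 15.9 CPM with Cd163l1 and 26.0 CPM without, was not apart, and Cd40lg had 28 and 6 UMIs.

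Whether a cell shows Cd163l1 depends on its depth, so Cd163l1 was also counted in 2000 UMIs drawn from every cell. Drawing evens the depth but adds misses. Of the cells with Cd163l1 at full depth, 73.6% kept a UMI of it, and the others fell into the bin with 0. There were then 5184 cells with 0, 2748 with 1, 1783 with 2 and 2235 with 3 or more Cd163l1 UMIs. Cd27 lay at 35.7, 6.40, 2.48 and 1.74 CPM from the lowest to the highest of these bins, and Tnfrsf4 at 16.1, 8.72, 6.27 and 3.54 CPM. Tnfsf11 lay at 81.5, 140, 171 and 194 CPM and Icos at 643, 944, 1026 and 1069 CPM in the same order. Each of these 4 series ran in 1 direction. Tnfrsf9 did not, with 1243, 1564, 1550 and 1348 CPM. Under the split at equal depth, with the missed cells on the 0 side, Icos was no longer 2-fold apart (log2 ratio 0.65) and Tnfsf11 stood at 1.02.

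**Figure D3:**
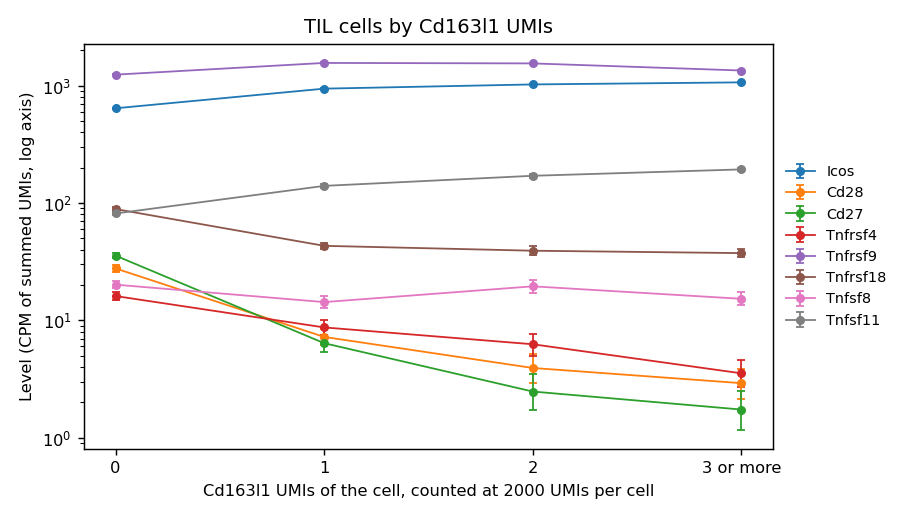
Level of 8 of the genes (CPM of summed UMIs, log axis, exact 95% Poisson intervals) in TIL cells by their Cd163l1 UMIs, counted after 2000 UMIs were drawn from each cell. Cd27, Cd28 and Tnfrsf4 lie lower in each further bin, Icos and Tnfsf11 higher, and Cd40lg, with 3 to 11 UMIs a bin, is not drawn.

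The tumour cells without Cd163l1 were closer to IEL cells in some genes than in others. Against IEL cells, Icos, Cd28, Tnfrsf4, Tnfrsf9 and Tnfsf11 were higher in them and 0 of the 8 genes at 20 CPM was lower, where 6.91% of 6207 genes were higher and 9.52% lower. Icos was at 423 CPM in TIL cells without Cd163l1 and 33.0 CPM in IEL cells, which is a log2 ratio of 3.68 (3.61 to 3.75), and Cd28 was at 52.2 CPM in the same TIL cells and 5.16 CPM in IEL cells, which is a log2 ratio of 3.34 (3.16 to 3.52). Tnfsf11 had a log2 ratio of 3.75 (3.49 to 4.01), Tnfrsf4 of 4.35 and Tnfrsf9 of 1.40 (1.37 to 1.43). Cd27, Tnfrsf18 and Tnfsf8 were within 2-fold of IEL cells, at log2 ratios of -0.39, 0.16 and -0.09. With the split made at equal depth, which moves cells with Cd163l1 into the 0 side, Cd27 was lower, at -1.24. In cells with a γδ receptor UMI and no Trac, Cd28 stood at 2.40 and Tnfsf11 at 2.83, and Tnfrsf4, at 2.10, was no longer called. These comparisons share the TIL cells without Cd163l1 with the one above, and their ratios are not independent of it.

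The TIL cells without Cd163l1 were a mixture. When each library was clustered by itself, with the 9 genes and the other lists kept out of the clustering, 40.8% of them lay in TIL clusters 1 to 5, which hold 92.3% of cells with Cd163l1. A further 22.0% lay in cluster 6 and 34.1% in cluster 7. At full depth a Cd163l1 UMI was found in 12.4% of cluster 6 and 14.1% of cluster 7 cells, against 17.9% of the tumour's myeloid cells. The part of free RNA in these shares was not tested. Clusters 1 to 5 were led by Mcpt1, Stmn2, Spp1, Hspa1b and Batf3, cluster 6 by Ly6c2, and cluster 7 by Cd8a and Fcer1g. Cluster 8 was led by cell cycle genes such as Pclaf, cluster 9 by Gzmc and Xcl1, and cluster 10, of 79 cells, by Foxp3 and Il1rl1. With the cells without Cd163l1 taken from clusters 6 and 7 alone, a setting added after seeing the data, the calls against IEL cells for Icos (log2 ratio 0.92), Tnfrsf9 (-0.27), Tnfrsf4 (2.32) and Tnfsf11 (2.15) were lost, the last 2 because they were under 20 CPM. Cd28 stayed higher, at 3.95. In cells with Cd163l1 over these cells, Icos stood at 3.94, Tnfrsf9 at 2.54 and Tnfrsf4 at 0.41.

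Icos and Tnfrsf9 were high in clusters 1 to 5 and low in clusters 6 and 7. Icos ranged from 1149 CPM in cluster 3, led by Spp1 and Mmp9, to 63.6 CPM in cluster 6. Its 71.2 CPM in cluster 7 had an interval (65.1 to 77.6) that overlapped that of cluster 6 (55.8 to 72.2). Tnfrsf9 ranged from 1962 CPM in cluster 3 to 94.0 CPM (84.4 to 104) in cluster 6, which overlaps the interval of the myeloid cells, and was at 386 CPM in cluster 7. Tnfsf11 was the most concentrated of the genes that were higher in TIL: cluster 3 was at 317 CPM and held 70.2% of its TIL UMIs, and a Tnfsf11 UMI was found in 50.9% of its cells at full depth, against 23.2% of all TIL cells. Cluster 2, led by Stmn2, was at 9.34 CPM of Tnfsf11 while its Icos was at 867 CPM.

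Cd27 and Cd28 shared cluster 6 but not cluster 7. Cluster 6, which also held Ccr7 at 501 CPM, was at 150 CPM of Cd27 and 198 CPM of Cd28, and held 565 of 1571 Cd27 and 742 of 1327 Cd28 UMIs of the TIL library. Cluster 7 was at 90.7 CPM of Cd27 and at 12.9 CPM of Cd28. Cluster 9, of 324 cells, held both, at 48.5 CPM of Cd27 and 36.7 CPM of Cd28, although 89.8% of its cells held Cd163l1. Its median was 12704 UMIs, and it held Il17a at 2419 CPM and Cd8a at 145 CPM. The part of droplets with more than 1 cell in cluster 9 was not tested. In clusters 1 to 5 both genes lay between 0.467 and 2.89 CPM. In the IEL library, by contrast, Cd27 was spread over all clusters, from 40.6 CPM in cluster 7 to 108 CPM in cluster 5, whereas cluster 5, with Tcf7 and Id3 among its leading genes, held 89.1% of Cd28 UMIs.

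Tnfrsf4 was mainly a gene of TIL cluster 10. Its 79 cells, 0.656% of the TIL cells, held 699 of 951 Tnfrsf4 UMIs (73.5%), at 905 CPM (839 to 975) in cluster 10 and 2.83 CPM in all other TIL cells. Foxp3 was at 162 CPM and Cd4 at 98.4 CPM there, and by these genes the cluster is called regulatory T-like. All 5 regulatory T markers looked at reached 20 CPM there, but 3 of them also did so over all TIL cells. Ctla4 was at 1449 CPM in cluster 10 and 1484 CPM in cluster 3. Il2ra was at 548 CPM in cluster 10 and 676 CPM in cluster 5, and Ikzf2 at 311 CPM in cluster 10 and 958 CPM in cluster 7. Cluster 10 also had the highest TIL level of Tnfrsf18 (442 CPM), Cd28 (245 CPM) and Tnfsf8 (205 CPM), with Icos at 919 CPM and Tnfrsf9 at 1718 CPM. The cluster held Trdc at 1558 CPM, Trac at 408 CPM and Il17a at 3655 CPM, and its median of 8733 UMIs exceeded that of the library. The part that droplets with more than 1 cell, or free RNA, have in these values was not tested.

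Without cluster 10, the log2 ratio of Tnfrsf4 between TIL and IEL cells was 1.31, against 3.22 (2.88 to 3.57) with it. Tnfrsf4 was then no longer apart between TIL cells without Cd163l1 and IEL cells, where 4 of the genes remained higher, nor between the tumour subsets, where 3 were lower. The share of all genes called was not taken without this cluster. Tnfrsf18 moved little, at -1.05 without the cluster, which is past 2-fold.

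**Figure D4:**
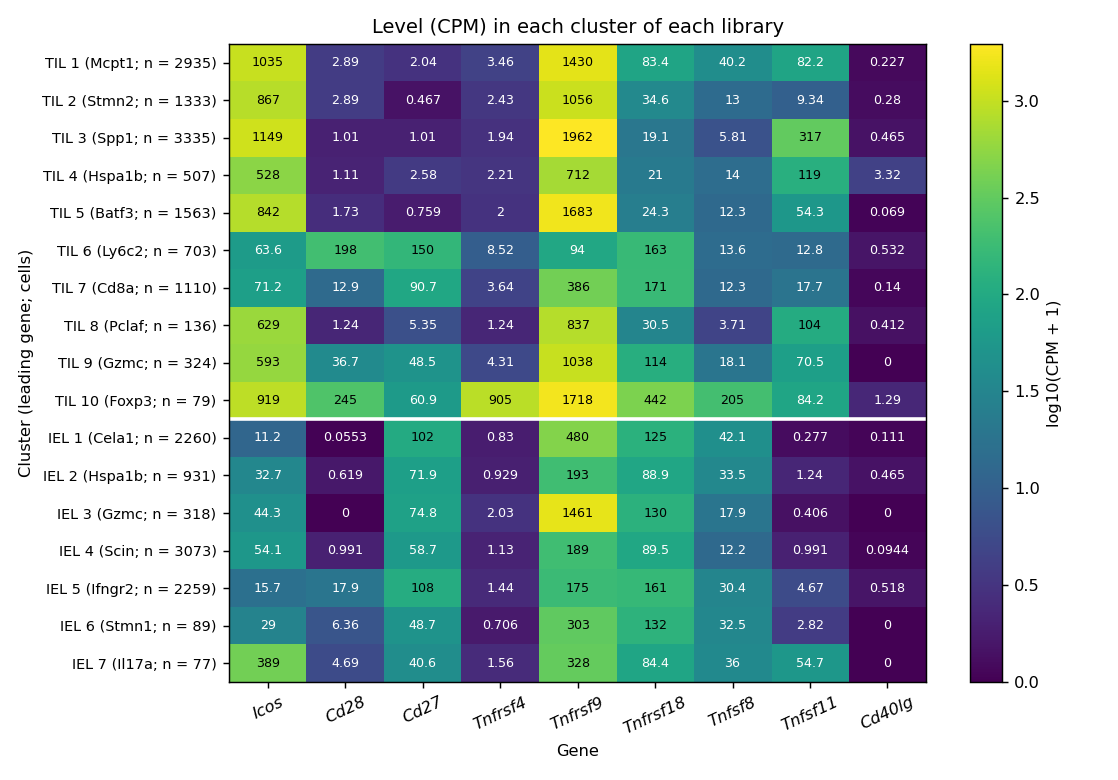
Level (CPM of summed UMIs, printed in each cell and coloured as log10(CPM + 1)) of the 9 genes in every cluster of at least 50 cells, TIL clusters above and IEL clusters below the white line, with each cluster's leading gene and cell number. Tnfrsf4 is bright in TIL cluster 10 alone, at 905 CPM, Cd28 in TIL clusters 6 and 10, and Icos in TIL clusters 1 to 5 and 8 to 10 and in IEL cluster 7.

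In the IEL library Icos and Tnfsf11 stood out in cluster 7, 77 cells with Il17a and Cd163l1 among their leading genes, 85.7% of which held a Cd163l1 UMI. Icos was at 389 CPM (342 to 441) in these cells and at 29.6 CPM in the other IEL cells. Tnfsf11 was at 54.7 CPM (38.1 to 76.1) there and at 1.79 CPM in the others, so that the 77 cells held 22.6% of the library's Tnfsf11 UMIs. The larger IEL cluster 5, of 2259 cells, held 52.3% of them at 4.67 CPM. Likewise IEL cluster 4, of 3073 cells, held 51.4% of the library's Icos UMIs at 54.1 CPM. Tnfrsf9 was not raised in cluster 7, at 328 CPM there and 313 CPM in the others. It peaked at 1461 CPM in IEL cluster 3, led by Gzmc and Ccl4, which was at 44.3 CPM of Icos. Across the 10 TIL clusters Tnfrsf9 and Icos went together (r = 0.92 on log2(CPM + 1)), and across the 7 IEL clusters r was 0.04. These are descriptions over clusters of 1 library each.

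Cells with a Cd163l1 UMI, 9243 in TIL and 98 in IEL, were then set side by side, a comparison chosen after seeing the data. They were not alike in other respects: 92.3% of the TIL cells lay in TIL clusters 1 to 5, and 67.3% of the IEL cells in IEL cluster 7 with a further 20.4% in cluster 4. Il17a was at 5050 CPM in the TIL and 769 CPM in the IEL cells with Cd163l1, and Cd8a at 21.4 and 321 CPM, and the part of this mix in the ratios was not tested. Icos was at 952 CPM in the TIL and 299 CPM (260 UMIs) in the IEL cells with Cd163l1, a log2 ratio of 1.67. Tnfrsf9 had a log2 ratio of 2.21 (2.04 to 2.38) and Tnfsf11 of 2.15 (1.63 to 2.72), and both were higher in TIL. Cd27, at 6.35 CPM in TIL against 43.7 CPM in IEL cells with Cd163l1, and Tnfrsf18, at 43.9 and 94.2 CPM, were lower in TIL. Thus 3 of 6 genes were higher and 2 lower, where 6.53% of 6155 genes were higher and 10.9% lower. The log2 ratio of Tnfsf11 was smaller here than between the whole libraries, 2.15 against 5.82.

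The Cd8a-high cells were TIL cluster 7 (1110 cells) and IEL clusters 1 to 4 (6582 cells), at 677 and 707 CPM of Cd8a. Pooled this way, Tnfrsf9 and Cd27 were not apart between them: Tnfrsf9 was at 386 CPM in the TIL and 364 CPM in the IEL cells, with a log2 ratio of 0.09 (0.03 to 0.14), and Cd27 was at 90.7 CPM in the TIL and 77.4 CPM in the IEL cells. Icos alone of the 5 genes at 20 CPM was higher, at 71.2 CPM in the TIL and 34.6 CPM in the IEL cells, and Tnfsf8 alone was lower, at 12.3 and 26.6 CPM, where 2.53% of 6058 genes were higher and 5.23% lower. The pooled IEL values average clusters that differ. In IEL clusters 1 to 4 in order, Tnfrsf9 was at 480, 193, 1461 and 189 CPM, on both sides of TIL cluster 7. Icos was at 11.2, 32.7, 44.3 and 54.1 CPM in the same order, so that clusters 3 and 4 were nearer to TIL cluster 7 than the pooled value. Tnfsf8 was at 42.1, 33.5, 17.9 and 12.2 CPM in the same order, so that cluster 4, with 3073 cells, was level with TIL cluster 7. Icos was at 11.6 CPM (3.15 to 29.6) in the tumour's myeloid cells, and the part of free RNA in its 71.2 CPM was not tested. Tnfsf11, at 17.7 CPM in TIL cluster 7 and 0.726 CPM in IEL clusters 1 to 4, was under 20 CPM, and its TIL level lay inside the interval of the myeloid value, 8.67 CPM (1.79 to 25.3).

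More TIL than IEL cells held several of the 9 genes at once, through Icos and Tnfrsf9. At 2000 UMIs, 66.5% of TIL cells (65.7 to 67.4) and 17.6% of IEL cells (16.8 to 18.4) held UMIs of at least 2 of them. The mean number was 1.77 in TIL cells and 0.800 in IEL cells. Within the tumour, 72.6% of cells with Cd163l1 and 46.2% of cells without held at least 2. Counted over the 7 genes other than Icos and Tnfrsf9, an alternative added after seeing the data, the order turned round: the mean was 0.329 in TIL and 0.401 in IEL cells, and 0.278 in TIL cells with Cd163l1 and 0.499 in those without. The regulatory T-like cluster 10 had the highest mean, 3.66 of the 9 genes, and 60.8% of its 79 cells held at least 4.

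Co-expression was described as the share of cells with UMIs of both genes, set against the product of the single shares. Of the 36 pairs, 24 in TIL and 13 in IEL cells had a product of at least 10 cells. In TIL cells 8 of the 24 were above the product, beyond the interval of the shared count, and 9 below, and in IEL cells 3 of 13 were above and 3 below. Pairs of other genes were not counted. The counts of pairs here and below thus cannot show whether these genes depart from the product more often than others. Icos and Tnfrsf9 were found together in 57.2% of TIL cells (56.3 to 58.1), where the product gives 51.7%. In IEL cells they were found together in 155 cells (1.73%), and the product gives 178 cells, inside the interval. Icos and Cd27 shared 0.628% of TIL cells, 0.277 of the product and the lowest such value in TIL, and 0.637% of IEL cells, 0.761 of the product. Cd27 and Cd28 were together in 66 TIL cells, 6.51 times the product, and Tnfrsf4 and Tnfrsf18 in 35, 3.12 times the product.

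In TIL cells without Cd163l1, 8 of 21 described pairs were above the product and 6 below. Icos and Tnfrsf9 were found together in 28.4% of them, 1.43 times the product, and Cd27 and Cd28 in 2.07%, 2.29 times the product. In cells with Cd163l1 the Icos and Tnfrsf9 pair was at 1.03 times the product, and 4 of 18 pairs were above and 6 below. These 2 genes were found in 78.6% and 81.4% of the cells with Cd163l1. At such shares the ratio cannot rise far above 1, so 1.03 and 1.43 cannot be compared directly. Within single clusters the departures were rare. Of 83 described pairs over 10 TIL clusters, 1 was above the product and 0 below, and of 36 over 6 IEL clusters 0 were above or below. The exception was Tnfsf8 with Tnfsf11 in TIL cluster 1, with 23 cells, 1.64 times the product. In clusters 1 to 5 the pair of Icos and Tnfrsf9 lay at no more than 1.04 times the product, inside the interval in each. Pooled over these clusters, 80.3% of cells held Icos and 83.0% Tnfrsf9, which leaves the ratio little room above 1. These ratios therefore cannot decide whether the pair goes together within a cluster. Clusters hold fewer cells than a library, and their intervals are wider.

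**Figure D5:**
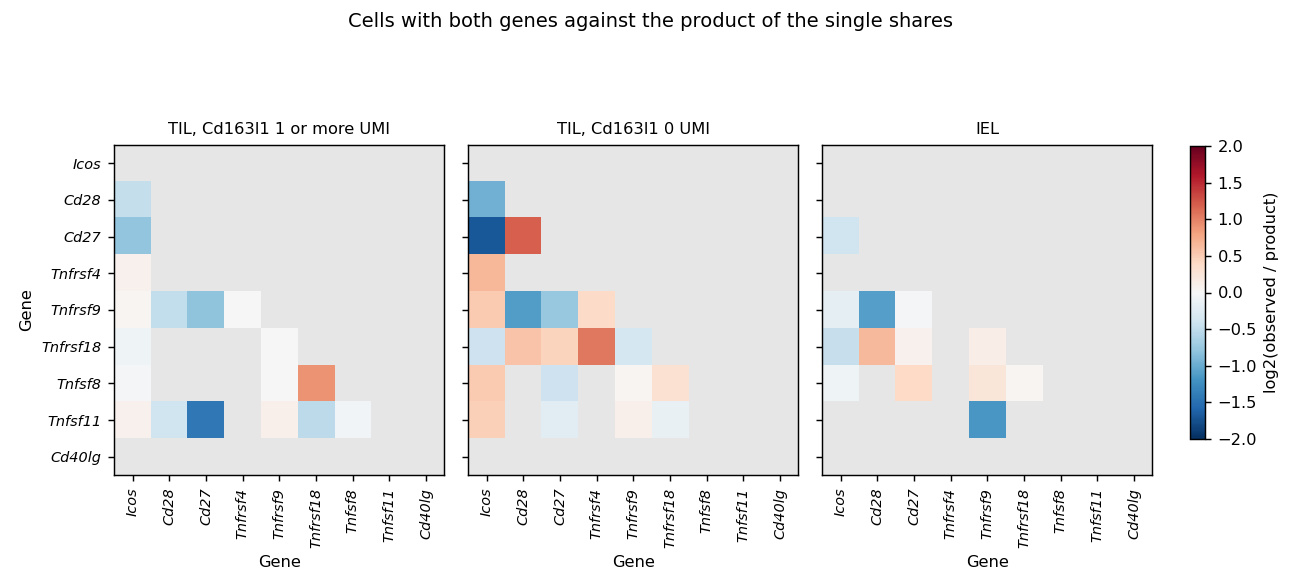
The log2 of the share of cells with both genes over the product of the single shares, for each pair whose product gives at least 10 cells (other squares, and the repeat of each pair above the diagonal, are grey), in TIL cells with 1 or more Cd163l1 UMI, TIL cells with 0, and IEL cells, at 2000 UMIs per cell. Red pairs occurred together more often than the product, such as Cd27 with Cd28 in TIL cells without Cd163l1 (2.29 times), and blue pairs less often, such as Icos with Cd27 in the same cells (0.310 times).

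The partners of these receptors and ligands were scarce in both libraries, and 0 of 11 reached 20 CPM in either. Icosl, the ligand of ICOS, was at 0.623 CPM in TIL against 4.33 CPM in IEL cells, and the OX40 ligand gene Tnfsf4 at 1.31 and 0.814 CPM. The 4-1BB ligand gene Tnfsf9 was at 4.95 CPM in TIL against 3.09 CPM in IEL cells, and the CD28 ligand genes Cd80 with 270 and 227 UMIs and Cd86 at 13.1 and 4.13 CPM. Cd70, the ligand of CD27, had 70 UMIs in TIL and 1 in IEL cells, and Tnfsf18, that of GITR, 2 and 0. Among the receptors of the 3 ligand genes, Tnfrsf8 (CD30) was at 13.1 CPM in TIL against 0.725 CPM in IEL cells, Tnfrsf11a (RANK) had 16 and 2 UMIs, its decoy Tnfrsf11b 24 and 0, and Cd40 20 and 0. In the 39 myeloid cells of the tumour, Cd86 was at 220 CPM, Tnfsf9 at 95.4, Cd80 at 69.4 and Cd40 at 66.5 CPM. Partner transcripts of those genes were thus higher in the few myeloid cells than in the gated T cells.

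Other genes of the pathway were taken from lists, each read against the same 10.9% higher and 13.6% lower. The lists, like the 9 genes, were chosen with earlier results of these data known, so their counts are descriptions and not a test. Of 24 further TNF receptors, 5 reached 20 CPM, 2 were higher in TIL and 1 lower, with a median log2 ratio of -0.36. Tnfrsf25, the receptor of the cytokine TL1A, was at 135 CPM in TIL against 1.38 CPM in IEL cells (log2 ratio 6.61), a larger ratio than that of any of the 9 genes. Tnfrsf12a was higher (3.02), Tnfrsf1a, a receptor of TNF itself, lower (-1.36), and Tnfrsf1b was at -0.38. Of 15 further ligands 3 reached 20 CPM. Ltb, a lymphotoxin gene, was higher, at 849 CPM in TIL against 91.1 CPM in IEL cells, and the death ligands Fasl (-2.47) and Tnfsf10 (-2.41) were lower, with a median of -2.41.

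Of 23 further CD28, B7 and SLAM family members and related receptors, 12 reached 20 CPM, 2 were higher in TIL and 5 lower (median 0.13). Those higher were the inhibitory receptors Pdcd1, at 543 CPM in TIL against 21.5 CPM in IEL cells, and Ctla4 (2.43). Cd244a (-3.57) and Slamf7 (-2.94), receptors of the SLAM family, were among those lower. All 23 TRAF and NF-κB genes reached 20 CPM, and 8 were higher and 1 lower, with a median of 0.81. Nfkb1, which encodes an NF-κB subunit, was higher (2.33), as were Traf3 (2.10) and the NF-κB inhibitor gene Nfkbia (1.93), and Traf5, an adaptor of several TNF receptors, was lower (-2.61). Of 20 genes that signal near CD28 and the T cell receptor, 19 reached 20 CPM, 1 was higher and 5 lower (median -0.36). The kinase gene Lck was lower, at 44.1 CPM in TIL against 328 CPM in IEL cells, as were Pik3r1 (-2.15), Malt1 (-1.79) and Prkcq (-1.77).

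The genes whose levels followed each of the 9 most closely over 17 clusters, by Pearson's r of log2(CPM + 1), were looked up as a description. For Icos they were Mapkapk3 (r = 0.99), Aebp2 and Il2ra, for Tnfrsf9 Id2 (0.93), Ttc39c and Jak3, and for Tnfsf11 Areg (0.95), Timp2 and Pde5a. For Cd27 they were Lck (0.98), Gimap6 and Fyb, and for Cd28 Cd2 (0.92), Ctla2a and Slamf6. Tnfrsf4 ran with Ednrb (0.98), Cd4 and Acod1, Tnfrsf18 with Lilrb4a (0.92), Hipk2 and Malt1, and Tnfsf8 with Akna (0.77), Shld1 and Ppp2r2a. Cd40lg, with its few UMIs, had Shoc2 (0.82), Tsc22d2 and Fnip1. For several of these genes the likeness was seen in the TIL clusters alone. Tnfrsf4 with Cd4 had r = 0.99 over the 10 TIL and -0.23 over the 7 IEL clusters, Tnfrsf18 with Malt1 0.97 and -0.58 and with Lilrb4a 0.97 and 0.01, and Cd40lg with Shoc2 0.91 and -0.05. IEL cells held only 77 Tnfrsf4, 16 Cd40lg and 7 Cd4 UMIs, too few for r over IEL clusters to show a lack of likeness. In TIL, Tnfrsf4 (905 CPM) and Cd4 (98.4 CPM) were far higher in cluster 10 than in any other, and their r rests largely on it.

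Since Trac was frequent, the levels were also taken apart by it. In the TIL library Icos was at 823 CPM in cells with a Trac UMI and 871 CPM in cells without, and Tnfrsf9 at 1385 and 1386 CPM. Tnfrsf4 was at 18.5 CPM with Trac and 4.70 CPM without, and 88.6% of the 79 cells of cluster 10 held Trac. In the IEL library Tnfrsf9 was at 343 CPM with Trac and 186 CPM without, and Cd28 at 3.63 and 11.9 CPM. With only cells that held a γδ receptor UMI and no Trac (7448 TIL and 1987 IEL cells), Icos stood at 4.58, Cd27 at -2.56, Tnfrsf9 at 2.90 and Tnfsf11 at 4.85 on the log2 scale, each on the same side as with all cells. Cells with Trac were also deeper, with medians of 7061 against 6126 UMIs in TIL and 7087.5 against 6146 UMIs in IEL. The part of cells other than γδ T cells in these differences was not tested.

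Some counts share a locus with another gene. Icos overlaps Gm37039, and Cd27 the microRNA gene Mir8113, on the same strand, while Vamp1 lies across from Cd27, Camta1 from Tnfrsf9 and Gm16008 from Tnfrsf18. How reads on such stretches were assigned is not given in the sources used here.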

How the data were processed

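Single-cell RNA was measured in 1 TIL and 1 IEL library (10x Genomics 3' v3). Per the submitters' processing notes the authors used Cell Ranger 6.1.1 and mm10; values in the deposited files are whole UMI counts for each gene and barcode, without normalization, per the file headers. The rule that made a barcode a cell is not given in the sources used here. Per the labels' protocols, cells came from a Percoll interface.

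From the deposited counts (94953893 UMIs over 13245 TIL and 69414155 over 9398 IEL barcodes), cells with at least 500 genes, 1000 UMIs and at most 10% mitochondrial UMIs were kept, 93.7% of TIL and 97.1% of IEL barcodes. A T cell gate asked for 1 UMI of Cd3d, Cd3e or Cd3g, fewer than 2 markers of any other cell type and under 5% haemoglobin UMIs. Myeloid cells had at least 4 myeloid markers and no Cd3 UMI. No doublet caller was run; leaving out the deepest 5% of cells was an alternative. Counts were summed per group and scaled to CPM. Ratios carry conditional exact 95% intervals, shares Clopper-Pearson intervals after thinning each cell to 2000 UMIs (94 TIL and 64 IEL cells were too shallow). No p-value was computed. In ratios a count of 0 was read as up to 3. Clusters used 2000 variable genes, 30 components, 15 neighbours and Leiden at 0.5 (Scanpy 1.11.5, igraph 0.11.9), each library alone; clusters under 50 cells were not described. Intervals were checked on simulated data.

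The 9 genes and all lists were chosen with earlier results of these data known. Named were all 9 genes, their 11 partners, the 4 list genes with the largest ratio at 20 CPM and the 3 genes most like each; other named genes are markers or cluster leaders, and pairs were picked after their values were seen. Gene positions are those of GENCODE for GRCm38, promoters those of RefSeq.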

Additional observations from a re-analysis of the deposited data

How the results depend on the processing

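The counts of genes apart moved under some settings. Between TIL and IEL cells 2 genes were lower, Cd27 and Tnfrsf18, with no T cell gate, with a γδ receptor UMI and no Trac, and without TIL cluster 10; 3 were lower at 1.5-fold and 5 higher at 5 CPM. Between TIL cells without Cd163l1 and IEL cells, 3 were higher at 50 CPM, and 1, Cd27, was lower with the split at equal depth. With those cells from clusters 6 and 7 alone, 1 was higher (Cd28) and 1 lower (Tnfsf8), Tnfrsf9 reversed to -0.27, and Tnfrsf4 reversed to 0.41 in cells with Cd163l1 over those without. With the split at equal depth 1 gene, Tnfsf11, was higher with Cd163l1. Settings by cluster were chosen after seeing the data, and the causes of these shifts were not tested.

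The share of cells with at least 2 of the genes follows depth. At 1000 UMIs, 4000 UMIs and without thinning it was 41.9%, 85.4% and 90.8% in TIL, 46.9%, 89.7% and 94.7% in TIL cells with Cd163l1, 25.5%, 69.2% and 77.8% in those without, and 6.82%, 38.6% and 59.9% in IEL cells. With a γδ receptor UMI and no Trac, 2 pairs were above the product in TIL cells with Cd163l1, 4 in those without, and 0 below it in IEL cells. Icos, Tnfrsf9 and Tnfsf11 stayed higher in TIL than in IEL cells, and Cd27 lower, under all 11 alternatives, Icos between 4.58 and 4.78, Tnfrsf9 between 2.11 and 2.90, Tnfsf11 between 4.85 and 5.91. Among the 11, the settings of 5 CPM, 50 CPM and 1.5-fold change only the call and leave each ratio as it was. Another, dividing by the median ratio of all genes, shifts every gene alike. No paired analysis was possible because each group had 1 library, and for the same reason no replicate could be left out. Low counts limit Cd40lg.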
